A study of Mus musculus with 12 samples.

Results

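The G1 cyclins, cyclin-dependent kinases (CDKs) and CDK inhibitors described here are 10 genes chosen by name for their role in the cell cycle, Ccnd1, Ccnd2, Ccnd3, Ccne1, Ccne2, Cdk4, Cdk6, Cdkn1b, Cdkn2c and E2f1. They and the gene lists below were chosen with earlier results of these data known. All 10 were among the 21671 genes of the deposited table. The cells were FL-MycER cells, that is, the mouse prolymphocytic line FL5.12 (strain BALB/c) carrying MycER, a MYC-estrogen receptor chimera that is switched on by 4-hydroxytamoxifen (OHT). Total RNA was sequenced in 4 conditions with 3 biological replicates each. Untreated cells received no drug. OHT cells received 100 nM OHT for 72 h. IACS cells were not primed and received 135 nM IACS-010759, an inhibitor of complex I of the mitochondrial respiratory chain, for 24 h. OHT_IACS cells were primed with 100 nM OHT for 48 h and then received 135 nM IACS-010759 for 24 h with OHT kept in the medium. All 4 conditions, the untreated cells included, carried the retroviral MycER as a pool of selected cells. No parental FL5.12 cells were analysed here, so that the action of OHT itself and that of MycER cannot be told apart.

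D-type cyclins (Ccnd1, Ccnd2, Ccnd3) bind CDK4 and CDK6, and the E-type cyclins (Ccne1, Ccne2) bind CDK2. These kinases phosphorylate the retinoblastoma protein, which then releases E2F factors such as E2F1 onto the promoters of genes for DNA synthesis. The inhibitor p18 (Cdkn2c) blocks CDK4 and CDK6, and p27 (Cdkn1b) blocks cyclin-CDK2 complexes. Ccnd2 and Cdk4 are known targets of MYC, and CDK6 is a major D-cyclin partner in blood cells.

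Values are RPKM, the reads on a gene after division by gene length and library total. These totals, worked out from the steps between RPKM values, ran from 10376530 to 14550158 reads. OHT replicates 1 and 3 had the smallest totals, at 0.776 and 0.805 of that of untreated replicate 1, and OHT replicate 2 stood apart from them at 1.043. Over genes with under 0.1 reads per base, the reads differed by more than sampling noise in each of the 12 replicate pairs (chi-square per gene from 1.08 to 1.88, largest p = 3.61e-05). Over all genes the pair of IACS replicates 1 and 2 did not (chi-square per gene of 1.02, p = 0.0848). Trib3, a stress gene taken as a check of the IACS-010759 label, had 5.73 ± 0.46 RPKM (SD, n = 3) in untreated and 23.0 ± 0.84 RPKM in IACS cells. Odc1, a MYC target taken as a check of the OHT label, had 64.9 ± 2.4 RPKM in untreated and 77.7 ± 8.2 RPKM in OHT cells, a log2 fold change of 0.23 (limma, adjusted p = 0.049) that was lost in 14 of 20 alternative settings and was 0.02 with the library total as a covariate (adjusted p = 0.615). Of 15 markers of B-lineage progenitors, 5 had a mean of at least 1 RPKM, among them Ptprc, Csf2rb and Il3ra, whereas Pax5, Rag1, Dntt, Il7r and Kit were at 0 in all 12 libraries. Gata1, an erythroid factor, ranged from 26.0 to 32.9 RPKM and Mpo, a myeloid gene, from 8.65 to 13.7 RPKM. Of 6 myeloid markers 2 had a mean of at least 1 RPKM (Mpo and Lyz2), as had 3 of 3 erythroid markers, 1 of 4 T cell markers and none of 3 fibroblast markers. The summed level of the myeloid markers ranged from 15.8 to 16.9 RPKM in untreated, 10.4 to 13.0 in OHT, 13.5 to 16.6 in IACS and 10.1 to 11.2 in OHT_IACS cells. That of the erythroid markers ranged from 41.1 to 41.4 RPKM in untreated, 42.1 to 44.9 in OHT, 33.8 to 39.7 in IACS and 36.6 to 37.2 in OHT_IACS cells. Within this sum, Klf1 had means of 13.3, 9.53, 6.96 and 5.1 RPKM in untreated, OHT, IACS and OHT_IACS cells. In the same order Hbb-b1 had 0.861, 1.47, 1.47 and 2.1 and Gata1 27.1, 32.2, 28.7 and 29.7 RPKM. The part of either list in the results was not tested.

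The 9 members other than Ccnd1 had at least 1 RPKM in all 12 libraries and were tested with limma on log2(RPKM + 0.1) among 9745 genes. With OHT alone, 5 of the 9 passed an adjusted p of 0.05 (Ccnd2 and Ccne1 higher, Cdk6, Cdkn1b and Cdkn2c lower), beside 36.4% of all genes tested. Without OHT replicate 3, 3 of the 9 passed. With IACS-010759 in nonprimed cells, 5 of the 9 passed (Ccnd2 and Cdk6 higher, Ccne1, Ccne2 and Cdkn2c lower), beside 15.9% of all genes. With IACS-010759 in OHT-primed cells, 3 of the 9 passed (Cdk6 higher, Ccne1 and Ccne2 lower), beside 23.7% of all genes. Between OHT_IACS and IACS cells, Ccnd2 was higher and Cdk6 lower, 2 of the 9, beside 26.5% of all genes. The median log2 fold change of the 9 was -0.08, -0.17, -0.10 and 0.03 in these comparisons, beside medians between -0.01 and 0.01 over all genes. Libraries of the 2 conditions did not overlap after scaling for 46%, 38.6%, 36.9% and 42.3% of all genes in these comparisons. For OHT_IACS against untreated cells this share was 57.7%. A lack of overlap for a member, given below, stands beside these shares. In RNA of whole cultures, fewer cells of a kind and less RNA per cell cannot be told apart.

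**Figure D1:**
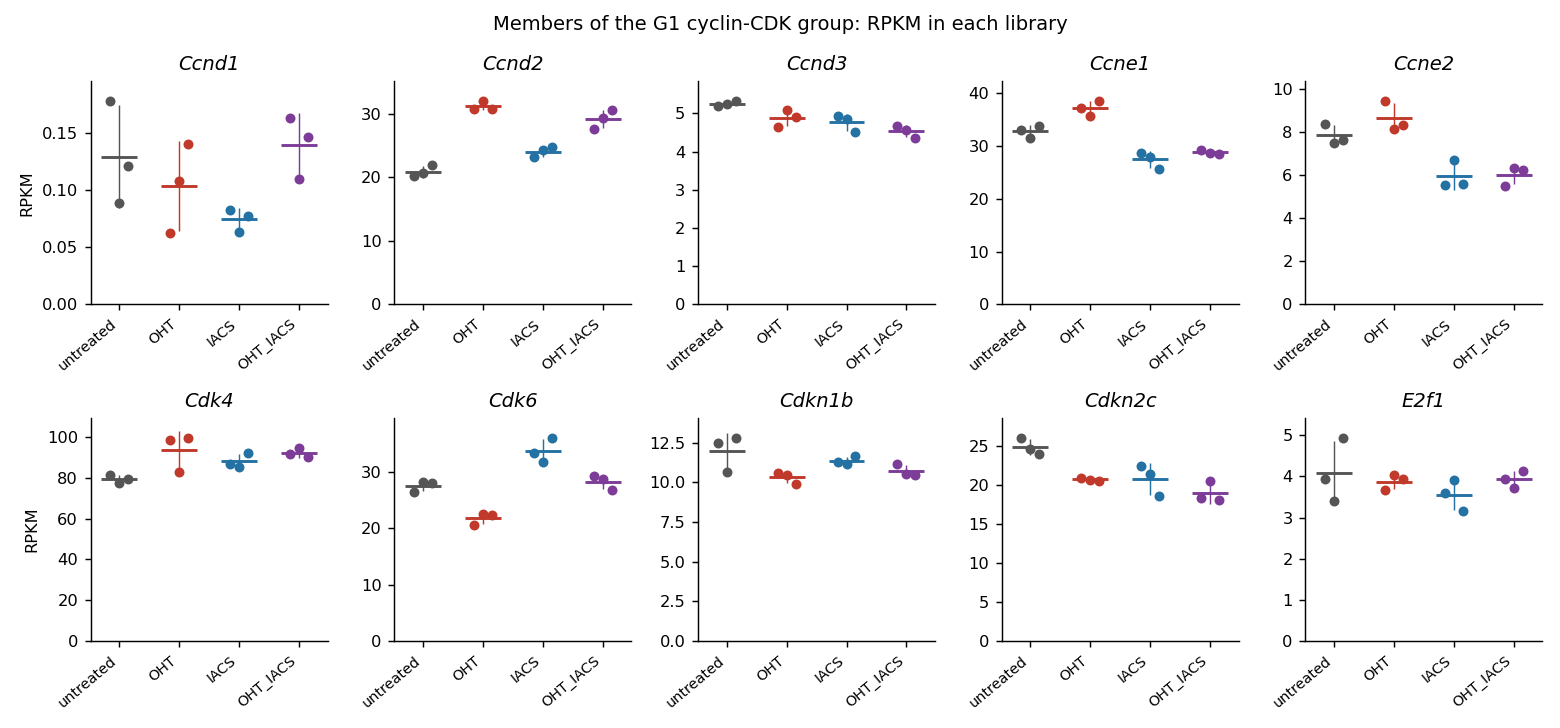
RPKM (linear axis from 0) of the 10 members in the 12 libraries, with a point per library, a horizontal line at the mean and a vertical line of 1 SD on either side (n = 3 per condition). Ccnd2 is lowest in untreated and highest in OHT cells, Cdk6 is lowest in OHT and highest in IACS cells, and both E-type cyclins are lower in the conditions with IACS-010759.

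Ccnd2, which encodes cyclin D2, was the D-type cyclin with the most reads, from 1653 to 2735 per library. Its RPKM were 20.1, 20.6 and 21.9 in untreated cells, 30.8, 31.9 and 30.8 in OHT, 23.1, 24.3 and 24.7 in IACS, and 27.6, 29.3 and 30.5 in OHT_IACS cells. The untreated libraries lay below all others. The OHT libraries lay above all others in the deposited values, and overlapped the OHT_IACS libraries after scaling. With OHT the level rose 1.47-fold (log2 fold change of 0.55, 95% confidence interval from 0.44 to 0.67, limma, adjusted p = 5.71e-06). With IACS-010759 alone it rose 1.13-fold (log2 0.17, interval from 0.06 to 0.29, adjusted p = 0.0431). This smaller rise no longer passed in 9 of 20 alternative settings, namely without a filter on low values, with the library total as a covariate, and without each untreated library, OHT replicate 3, IACS replicate 2 or 3, or OHT_IACS replicate 2 in turn (highest adjusted p = 0.159). In OHT-primed cells the change with IACS-010759 was -0.10 on the log2 scale (interval from -0.21 to 0.02, adjusted p = 0.214), and OHT_IACS cells stayed 1.22-fold above IACS cells (adjusted p = 0.00178). The response to IACS-010759 in primed cells minus that in nonprimed cells was -0.27 (interval from -0.44 to -0.11), with an adjusted p = 0.179 in limma and 0.00349 unadjusted. Ccnd2 lies at chr6:127125162-127152193 on the minus strand (GENCODE vM21, GRCm38).

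Ccnd1 (cyclin D1) had 3 to 11 reads per library, that is 0.063 to 0.178 RPKM, and was not tested. Its IACS libraries lay below all untreated and OHT_IACS libraries and the OHT libraries overlapped all 3 other conditions, at a few reads each, with means of 0.130 ± 0.045 RPKM in untreated, 0.104 ± 0.039 in OHT, 0.0746 ± 0.0103 in IACS and 0.1403 ± 0.0274 in OHT_IACS cells (SD, n = 3). Ccnd1 supplied at most 0.698% of the summed RPKM of the D-type cyclins in any library.

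Ccnd3 (cyclin D3) had 5.20, 5.24 and 5.31 RPKM in untreated, 4.65, 5.08 and 4.89 in OHT, 4.92, 4.86 and 4.51 in IACS, and 4.67, 4.56 and 4.36 in OHT_IACS cells. All untreated libraries lay above all treated ones. None of the single changes passed the threshold in the limma fit, at -0.13 with OHT (adjusted p = 0.0902) and -0.17 with IACS-010759 (adjusted p = 0.0617) on the log2 scale, while with voom on the recovered reads both did (adjusted p = 0.0321 and 0.0169). OHT_IACS cells were 0.852 times the untreated level (adjusted p = 0.00574), in a comparison that called 39.4% of all genes. The level of Ccnd3 relative to other genes depended on its length. The RPKM implied 9699 bases, against 2113 for the longest protein-coding transcript in GENCODE vM21, and on the latter the level would have been 24.1 ± 0.26 RPKM (SD, n = 3) in untreated cells. On its own such transcript, of 6330 bases, Ccnd2 would have had 20.2 ± 0.90 RPKM there, below Ccnd3. In the other conditions Ccnd2 would have been above Ccnd3 (30.2 against 22.4 in OHT, 23.3 against 21.9 in IACS, 28.3 against 20.8 in OHT_IACS cells). On the deposited lengths, Ccnd2 made up 79.5% ± 0.61 of the summed D-type cyclin RPKM in untreated, 86.2% ± 0.42 in OHT, 83.2% ± 1.1 in IACS and 86.2% ± 1.0 in OHT_IACS cells (SD, n = 3). Its shares of D-type cyclin reads, which are not corrected for length, were 71.3%, 80.0%, 76.0% and 80.0% in the same order.

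The E-type cyclins were lower with IACS-010759 in both backgrounds. Ccne1 (cyclin E1) had 33.1, 31.4 and 33.8 RPKM in untreated cells, 37.2, 35.6 and 38.4 in OHT, 28.6, 27.9 and 25.7 in IACS, and 29.1, 28.6 and 28.5 in OHT_IACS cells. No library with IACS-010759 reached the lowest without it. The level fell to 0.821 times untreated with IACS-010759 (log2 -0.28, interval from -0.39 to -0.18, adjusted p = 0.00186) and to 0.777 times in OHT-primed cells (log2 -0.36, interval from -0.47 to -0.26, adjusted p = 0.000222), both past the threshold in all 20 alternatives. With OHT alone Ccne1 rose 1.12-fold (log2 0.16, adjusted p = 0.0233). That rise did not pass with the library total as a covariate (log2 0.12, adjusted p = 0.128), nor without untreated replicate 2, OHT replicate 1 or OHT replicate 3 (adjusted p = 0.104, 0.0666 and 0.0773). OHT_IACS and IACS cells differed by 0.08 on the log2 scale (interval from -0.03 to 0.18, adjusted p = 0.28).

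Ccne2 (cyclin E2), which was lower than Ccne1 per length in each library, had 8.39, 7.52 and 7.64 RPKM in untreated, 9.44, 8.15 and 8.34 in OHT, 5.54, 6.70 and 5.61 in IACS, and 5.51, 6.35 and 6.25 in OHT_IACS cells. As for Ccne1, the libraries with IACS-010759 lay below those without. Ccne2 fell to 0.745 times with IACS-010759 in nonprimed cells (log2 -0.42, interval from -0.62 to -0.23, adjusted p = 0.0068) and to 0.702 times in primed cells (log2 -0.51, interval from -0.71 to -0.32, adjusted p = 0.00156). With OHT alone its change was 0.11 (interval from -0.08 to 0.31, adjusted p = 0.341), and its groups overlapped. The ratio of Ccne1 to Ccne2 RPKM ranged from 3.94 to 5.29 over the 12 libraries, with group means of 4.18 ± 0.24 in untreated, 4.31 ± 0.34 in OHT, 4.64 ± 0.50 in IACS and 4.79 ± 0.44 in OHT_IACS cells (SD, n = 3).

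The promoters of Cdk4, Cdk6 and Ccne1 are printed next because the first carried the most E-boxes of the members, the second was the member with the widest range of levels, and the third changed with both drugs. Each window runs from 250 bases before to 50 after a start site that RefSeq gives on GRCm38.p6, written 5′ to 3′ on the strand of the gene. A gene can have several such sites, and that of Cdk6 lies inside the gene as GENCODE vM21 draws it, downstream of the GENCODE start. Capitals mark the E-box CACGTG, the sequence bound by MYC-MAX, which reads alike on both strands. Of the 10 members, 7 had a window in the table (9 windows in all), and none was at hand for Ccnd1, Ccnd2 and Ccne2.
Cdk4 (chr10:127063285-127063584, plus strand): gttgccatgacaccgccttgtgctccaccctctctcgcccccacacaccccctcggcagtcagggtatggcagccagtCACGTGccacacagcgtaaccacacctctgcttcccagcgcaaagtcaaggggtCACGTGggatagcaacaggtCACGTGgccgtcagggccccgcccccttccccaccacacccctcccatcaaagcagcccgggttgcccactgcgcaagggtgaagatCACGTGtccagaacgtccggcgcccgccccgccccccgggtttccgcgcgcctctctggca
Cdk6 (chr5:3343643-3343942, plus strand): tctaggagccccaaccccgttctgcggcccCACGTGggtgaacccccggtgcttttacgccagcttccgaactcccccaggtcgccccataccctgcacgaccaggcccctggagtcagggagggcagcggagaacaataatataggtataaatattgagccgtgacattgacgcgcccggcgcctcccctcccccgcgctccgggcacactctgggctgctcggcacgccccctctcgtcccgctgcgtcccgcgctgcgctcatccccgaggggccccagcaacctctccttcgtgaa
Ccne1 (chr7:38107441-38107740, minus strand): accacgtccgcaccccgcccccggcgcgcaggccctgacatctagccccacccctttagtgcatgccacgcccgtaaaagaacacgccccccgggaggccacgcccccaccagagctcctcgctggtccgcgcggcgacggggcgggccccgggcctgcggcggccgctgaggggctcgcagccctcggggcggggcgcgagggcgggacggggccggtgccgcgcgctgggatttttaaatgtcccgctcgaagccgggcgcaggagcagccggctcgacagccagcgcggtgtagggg
The Cdk4 window held 4 E-boxes, with first bases at -172, -118, -98 and -11 from its start site. The Cdk6 window held 1, with its first base at -220 from the RefSeq start site, and the Ccne1 window none. Among all 32851 windows of the same length, 7.15% held at least 1 E-box. One of the 2 Cdkn2c windows (chr4:109665323-109665622, minus strand) also held 1. The other (chr4:109666707-109667006), nearer the GENCODE start, held none, as did the windows of Ccnd3, Cdkn1b and E2f1. Like that of Cdk6, both Cdkn2c windows, the E2f1 window and the Ccnd3 window at chr17:47593217-47593516 lie inside the gene as GENCODE vM21 draws it. The bases before the GENCODE starts of Cdk6, Cdkn2c and E2f1 were thus not searched. The E2F words TTTCCCGC, TTTCGCGC, TTTGCCGC and TTTGGCGC were sought on both strands. They were in none of the 9 windows and in 2.26% of all windows. A match describes the letters only.

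The 2 kinases that pair with D-type cyclins moved differently. Cdk6 had 26.5, 28.2 and 28.1 RPKM in untreated cells, 20.6, 22.6 and 22.5 in OHT, 33.5, 31.9 and 36.1 in IACS, and 29.3, 28.7 and 26.8 in OHT_IACS cells. The OHT libraries were the lowest and the IACS libraries the highest, with no overlap, and the untreated and OHT_IACS libraries overlapped in between. OHT lowered Cdk6 to 0.781 times (log2 -0.36, interval from -0.49 to -0.23, adjusted p = 0.000446) and IACS-010759 alone raised it (log2 0.26, interval from 0.13 to 0.39, adjusted p = 0.00971). In primed cells IACS-010759 raised it 1.29-fold (log2 0.37, interval from 0.24 to 0.50, adjusted p = 0.000809), and OHT_IACS cells were at 0.842 times IACS cells (adjusted p = 0.00746). With both drugs the level was 1.01 times untreated (log2 0.01, interval from -0.11 to 0.14, adjusted p = 0.877). These 4 calls held in all 20 alternatives. The difference between the responses to IACS-010759 in primed and nonprimed cells was 0.11 (interval from -0.07 to 0.29, adjusted p = 0.61). The RPKM implied a length of 2742 bases for Cdk6, against 11525 for its longest transcript, so that its level relative to Cdk4 is uncertain. Cdk6 lies at chr5:3341485-3531008 on the plus strand (GENCODE vM21, GRCm38).

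Cdk4, the most abundant member per length, had 81.5, 77.5 and 79.5 RPKM in untreated cells, 98.7, 82.8 and 99.5 in OHT, 86.6, 85.5 and 92.2 in IACS, and 91.9, 94.8 and 90.0 in OHT_IACS cells. All untreated libraries lay below all others in the deposited values, but after the scaling used in the test OHT replicate 2 (81.1) lay below untreated replicate 1 (82.8). OHT replicate 2 stood apart from the other OHT libraries. The log2 fold change with OHT was 0.21 (interval from 0.03 to 0.39, adjusted p = 0.0659) and did not pass. It passed without OHT replicate 2 (log2 0.31, adjusted p = 0.00123), with RPKM as deposited (adjusted p = 0.0168), with the replicate block (adjusted p = 0.0494) and with voom (adjusted p = 0.0176), and was 0.02 with the library total as a covariate (adjusted p = 0.62). With IACS-010759 the change was 0.12 in nonprimed (adjusted p = 0.368) and -0.02 in primed cells (adjusted p = 0.912). The reads on Cdk4 hardly varied, from 1379 to 1579 (1.15-fold between the lowest and the highest), while library totals varied 1.4-fold and the reads on Cdk6 2.05-fold. Cdk4 averaged 1.1 reads per base. Over the 506 genes with at least 0.6 reads per base, replicates differed by less than sampling noise in 8 of 12 pairs (chi-square per gene down to 0.47). The part of read depth in the Cdk4 result was not otherwise tested. The ratio of Cdk4 to Cdk6 RPKM was 2.88 ± 0.18 in untreated, 4.30 ± 0.57 in OHT, 2.61 ± 0.07 in IACS and 3.26 ± 0.11 in OHT_IACS cells (SD, n = 3).

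**Figure D2:**
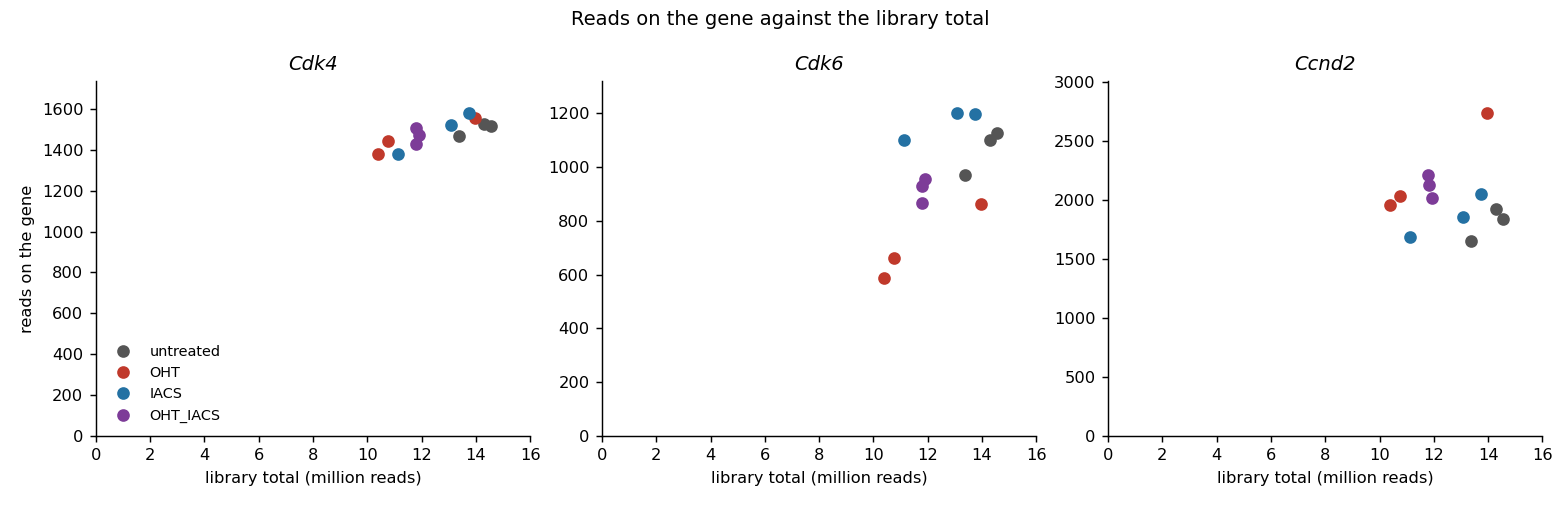
Reads on Cdk4, Cdk6 and Ccnd2 (y axis, linear from 0) against the library total in megareads (x axis, linear from 0), with a point per library coloured by condition. Reads on Cdk4 stay between 1379 and 1579 across all totals, whereas reads on Cdk6 run from 586 to 1200 and those on Ccnd2 from 1653 to 2735. Relative to the total, Cdk6 is lowest in OHT and highest in IACS cells, with untreated and OHT_IACS cells overlapping. Ccnd2 is lowest in untreated cells, and OHT and OHT_IACS cells lie close together.

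Both inhibitors were lower with OHT. Cdkn2c (p18, an INK4 inhibitor of CDK4 and CDK6) had 26.0, 24.6 and 24.0 RPKM in untreated cells, 20.9, 20.6 and 20.5 in OHT, 22.4, 21.3 and 18.5 in IACS, and 18.3, 20.5 and 18.0 in OHT_IACS cells. The untreated libraries lay above all 9 treated ones, which overlapped among the conditions. The level fell to 0.82 times with OHT (log2 -0.29, interval from -0.42 to -0.15, adjusted p = 0.00279) and to 0.818 times with IACS-010759 (log2 -0.29, interval from -0.42 to -0.16, adjusted p = 0.00663), past the threshold in all 20 alternatives. With both drugs it was 0.751 times untreated (adjusted p = 0.00017, beside 39.4% of all genes called). The further change with IACS-010759 in primed cells was -0.13 (interval from -0.26 to 0.00, adjusted p = 0.148). The difference between OHT_IACS and IACS cells, -0.12 (adjusted p = 0.163), passed only without IACS replicate 3 (log2 -0.18, adjusted p = 0.0425).

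Cdkn1b (p27, a Cip/Kip inhibitor) had 12.5, 10.7 and 12.8 RPKM in untreated cells, 10.6, 10.4 and 9.90 in OHT, 11.3, 11.2 and 11.7 in IACS, and 11.2, 10.5 and 10.5 in OHT_IACS cells. Untreated replicate 2 lay close to the OHT libraries, and overlapped them after scaling. With OHT the level fell to 0.852 times (log2 -0.23, interval from -0.38 to -0.08, adjusted p = 0.0187), but not past the threshold without untreated replicate 1 or 3 or OHT replicate 3 (adjusted p = 0.0735, 0.0827 and 0.0822). The changes with IACS-010759 were -0.10 in nonprimed (interval from -0.25 to 0.05, adjusted p = 0.371) and 0.06 in primed cells (interval from -0.09 to 0.20, adjusted p = 0.597).

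E2f1, the transcription factor released by the retinoblastoma protein, had 99 to 198 reads per library and a wide spread among untreated cells (4.09 ± 0.78 RPKM, SD, n = 3). Its RPKM were 3.94, 3.40 and 4.93 in untreated, 3.67, 4.03 and 3.93 in OHT, 3.59, 3.91 and 3.16 in IACS, and 3.94, 3.71 and 4.13 in OHT_IACS cells, and all conditions overlapped. Its changes were -0.08 with OHT (interval from -0.32 to 0.16, adjusted p = 0.593), -0.21 with IACS-010759 (interval from -0.45 to 0.03, adjusted p = 0.221) and 0.02 with IACS-010759 in primed cells (interval from -0.22 to 0.26, adjusted p = 0.928). These intervals are wide, and a change of any size within them remains possible.

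**Figure D3:**
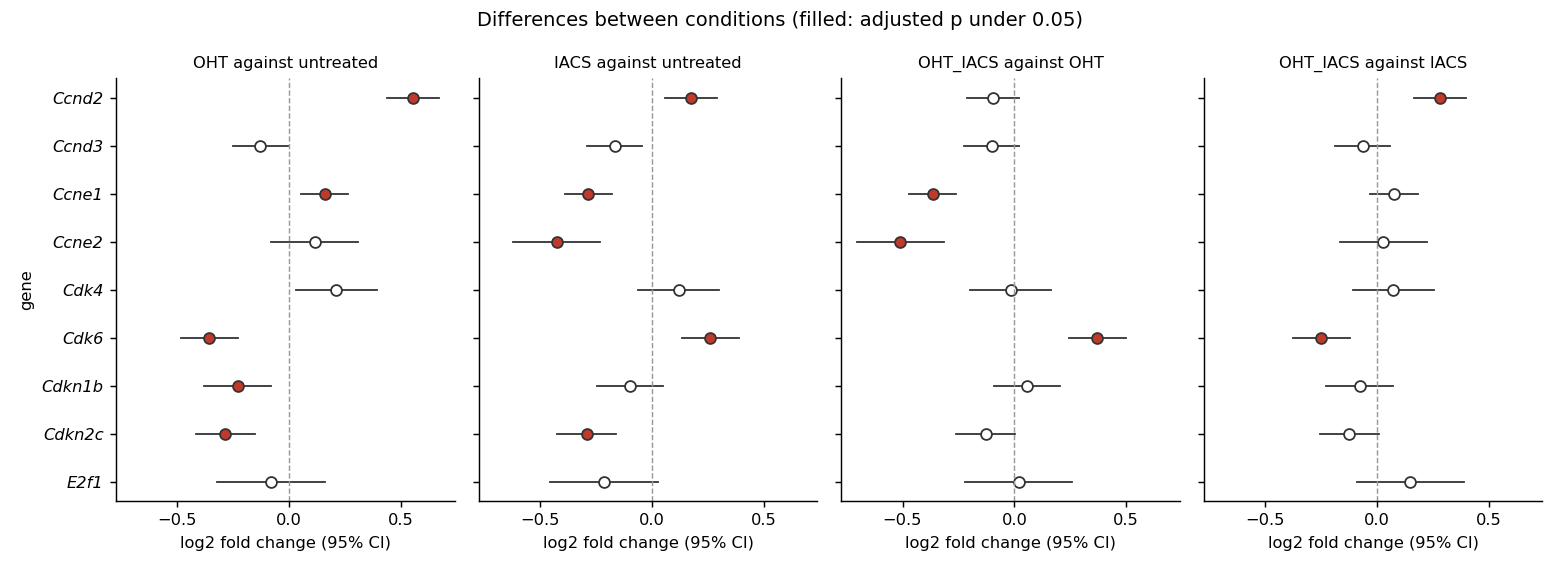
Log2 fold change (x axis, on the log2(RPKM + 0.1) scale) of the 9 members tested in 4 comparisons, with the 95% confidence interval of limma as a line and filled circles for an adjusted p under 0.05. Cdk6 is filled in all 4 panels, Ccne1 and Ccne2 are filled and lower in both responses to IACS-010759, and Cdk4, Ccnd3 and E2f1 are open throughout.

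None of the 9 passed the test of the difference between the responses to IACS-010759 in primed and nonprimed cells in limma, beside 0.144% of all genes (14 of 9745, and from 3 without OHT replicate 3 or OHT_IACS replicate 3 to 130 without OHT replicate 2). Ccnd2 was the 1 member with an unadjusted p under 0.05 there, and voom on the recovered reads called none of the 9 either. Among all 9745 genes, 1240 had an unadjusted p under 0.05.

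Ordering the 4 conditions by their mean, Ccnd2 ran from untreated over IACS and OHT_IACS to OHT, and only OHT_IACS and OHT did not differ as neighbours. Cdk6 ran from OHT over untreated and OHT_IACS to IACS, with untreated and OHT_IACS not told apart. Ccne1 ran from IACS over OHT_IACS and untreated to OHT, with IACS and OHT_IACS not told apart. Ccne2 had the same order, and there OHT and untreated cells were not told apart either. Cdkn2c ran from OHT_IACS over IACS and OHT to untreated, and only OHT and untreated cells differed as neighbours. No neighbours differed for Ccnd3, Cdk4, Cdkn1b and E2f1. The range between the lowest and the highest mean was 0.62 on the log2 scale for Cdk6, 0.55 for Ccnd2 and 0.54 for Ccne2, and from 0.21 (Cdk4) to 0.44 (Ccne1) for the others.

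For these 3 members with the widest range, the other tested genes with the most alike profile over the 12 libraries were sought by Pearson correlation, as a description, since the libraries share their conditions and depth. They were Esyt1 (r = 0.984), Ptpre (r = 0.98) and Dock10 (r = 0.976) for Cdk6. Ptpre, a receptor-type tyrosine phosphatase, had 5.01 ± 0.12 RPKM (SD, n = 3) in untreated, 2.86 ± 0.29 in OHT, 7.38 ± 0.20 in IACS and 5.29 ± 0.39 in OHT_IACS cells, the same order as Cdk6 with a wider range. For Ccnd2 they were Gng12 (r = 0.967), Cox10 (r = 0.965) and Rasip1 (r = 0.963). Gng12, a G protein gamma subunit, had 11.1 ± 0.12, 16.6 ± 0.61, 13.0 ± 0.47 and 16.2 ± 0.30 RPKM in untreated, OHT, IACS and OHT_IACS cells. For Ccne2 they were Gpn3 (r = 0.962), 2410004B18Rik (r = 0.96) and Cenpp (r = 0.96). Cenpp, a centromere protein, had 13.7 ± 0.96, 14.0 ± 0.71, 9.94 ± 1.3 and 10.5 ± 0.20 RPKM in the same order.

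A wider list of the G1 network, other cyclins, kinases, inhibitors, E2F factors, pocket proteins and ubiquitin ligases, held 34 genes. Of these 30 could be tested, and Ccna1 and Cdkn1c were at 0 in all 12 libraries. With OHT 7 rose and 2 fell, that is 30.0% called, below the 36.4% of all genes, beside a median of 0.06 on the log2 scale (all genes 0.01). The 7 were Fbxo31, E2f5, Rb1, Cks1b, Tfdp1, Cdkn1a and Mnat1, of which Cks1b and Tfdp1 overlapped the untreated libraries after scaling. Fbxo31, a subunit of a ubiquitin ligase that acts on cyclin D1, rose from 8.65 ± 0.62 to 12.3 ± 1.2 RPKM (SD, n = 3, adjusted p = 0.000191). Cdk2, the partner of the E-type cyclins, fell from 20.1 ± 0.90 to 16.3 ± 0.76 RPKM (log2 -0.32, adjusted p = 0.000153), and the pocket protein gene Rbl1 fell from 9.22 ± 0.09 to 7.76 ± 0.76 RPKM (adjusted p = 0.00237). With IACS-010759 none rose and 2 fell (6.7% called, beside 15.9% of all genes), Skp2, the ubiquitin ligase subunit that targets p27, from 6.80 ± 0.29 to 5.16 ± 0.26 RPKM (adjusted p = 0.000362), and E2f2, an activating E2F, from 3.84 ± 0.31 to 2.80 ± 0.27 RPKM (adjusted p = 0.0068). In primed cells 3 were called (10%, beside 23.7% of all genes). Skp2 was lower by a log2 fold change of -0.53 (adjusted p = 4.36e-05). E2f5 was lower as well (log2 -0.32, adjusted p = 0.0371), a call lost in 8 alternatives. Cdkn2b, the INK4 inhibitor p15, was higher by 1.58 on the log2 scale (adjusted p = 0.00241), at 4 to 41 reads per library, with 0.277, 0.720 and 0.467 RPKM in OHT and 1.15, 2.49 and 1.34 RPKM in OHT_IACS cells. In nonprimed cells Cdkn2b was also higher (log2 0.80, interval from 0.15 to 1.44) but did not pass (adjusted p = 0.088). It passed there with the library total as a covariate (adjusted p = 0.0493). The difference between its 2 responses was not called (log2 0.78, interval from -0.13 to 1.69, adjusted p = 0.47). Between OHT_IACS and IACS cells 2 rose and 2 fell (13.3%, beside 26.5% of all genes). Without OHT replicate 2 the genes called were 13 with OHT and 9 with IACS-010759 in primed cells, against 9 and 3 with all libraries, and 5 with OHT without untreated replicate 3 or OHT replicate 1. With the library total as a covariate 5 were called with OHT, 4 with IACS-010759 alone and 8 with IACS-010759 in primed cells.

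Among 30 genes known as E2F targets, most of which encode replication proteins and enzymes of nucleotide synthesis, all were tested. Of these 6 fell and none rose in nonprimed cells (median log2 -0.11), and 15 fell and none rose in primed cells (median -0.18), beside medians of 0.00 and -0.01 over all genes. The shares called, 20% and 50%, stand beside 15.9% and 23.7% of all genes, so that the first lies near the share called in either direction. All of these calls were falls, and 7.74% and 11.8% of all genes were called lower in these comparisons. The other 24 and 15 genes did not pass. Rrm2, a ribonucleotide reductase subunit, had 43.8, 43.4 and 45.7 RPKM in OHT and 34.0, 33.9 and 33.8 RPKM in OHT_IACS cells (log2 -0.38, adjusted p = 6.86e-05). Tk1, thymidine kinase, fell by 0.28 (adjusted p = 0.00365) and Mcm10, a replication factor, by 0.23 (adjusted p = 0.00406) in primed cells. In nonprimed cells the smallest adjusted p in limma belonged to Ung, a uracil glycosylase (log2 -0.32, adjusted p = 0.00223), Gins2 (log2 -0.42, adjusted p = 0.00343) and Cdc6 (log2 -0.28, adjusted p = 0.00575), both of which act at replication origins. With OHT, Tk1 fell and Rrm2 rose, the latter not with the library total as a covariate nor without untreated replicate 2 or 3 or OHT replicate 3. Mybl2 had a log2 fold change of 0.16 (limma, adjusted p = 0.0456), which missed the threshold in 11 of 20 alternatives, among them each untreated and each OHT library left out. These 3 of 30 (10%) stand beside 36.4% of all genes, against 1 gene called without untreated replicate 2 or 3 or OHT replicate 3 and 7 without OHT replicate 2. The other counts moved with the libraries too: the 15 became 9 without OHT replicate 3 or OHT_IACS replicate 3 and 20 without OHT replicate 2, and the 6 became 3 without untreated replicate 1 and 15 with the library total as a covariate.

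Of 18 mitotic genes, limma called none with IACS-010759 alone, beside 15.9% of all genes (median log2 -0.02, 3 at an unadjusted p under 0.05), voom called 1 and the fit with the library total as a covariate 5. The smallest adjusted p in limma belonged there to Kif20a, Cenpf and Plk1 (log2 -0.14, -0.16 and -0.11, adjusted p = 0.0735, 0.12 and 0.14). In primed cells 3 fell (Kif20a, Aurka and Bub1, log2 -0.24, -0.24 and -0.16), which is 16.7% beside 23.7% of all genes, against 7 without OHT replicate 2. The Bub1 call was lost without OHT replicate 3 or OHT_IACS replicate 1 or 2. With OHT 5 rose (27.8%, beside 36.4% of all genes), among them the kinesin Kif20a (0.31, adjusted p = 0.000363) and the kinases Plk1 and Aurka (0.18 each, adjusted p = 0.0106 and 0.0174; Aurka not without untreated replicate 2 or OHT replicate 1 or 3), but 2 with the library total as a covariate, 2 or 3 without any one of untreated replicates 2 and 3 and OHT replicates 1 and 3, and 11 without OHT replicate 2. The median of the E2F target genes relative to untreated cells was 0.11, -0.05 and 0.09 in OHT replicates 1, 2 and 3, -0.09, -0.15 and -0.05 in the IACS and -0.07, -0.09 and -0.13 in the OHT_IACS replicates. OHT replicate 2 thus lay next to IACS replicate 3 on this list, and at 0.00 against 0.14 in both other OHT libraries on the mitotic list.

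**Figure D4:**
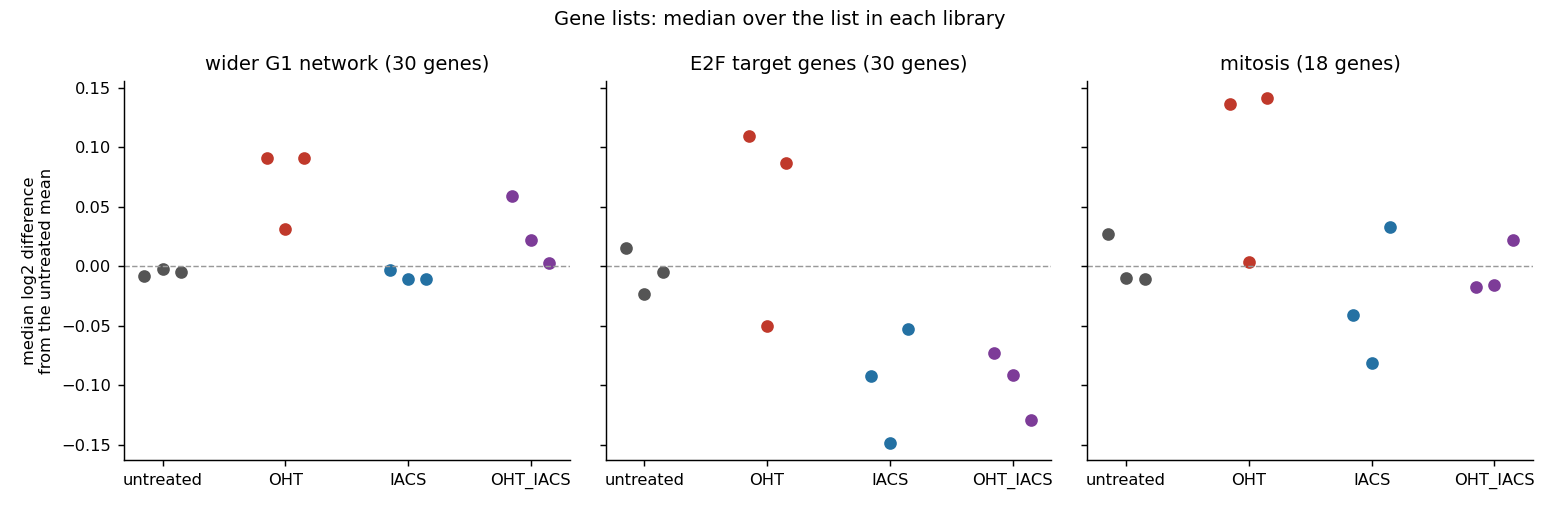
Median over a gene list of the log2 difference from the untreated mean (y axis), with a point per library in the 4 conditions (x axis). The 3 IACS and 3 OHT_IACS libraries lie below the untreated ones for E2F target genes (-0.15 to -0.05), and OHT replicate 2 lies below the other OHT libraries on all 3 lists.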

How the data were processed

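The libraries came from FL-MycER cells in 4 conditions, with 3 replicates each, and were grouped by the sample labels. The study calls them biological replicates without saying whether cultures were separate, so that p-values measure the spread between these libraries, which may be partly technical. The authors depleted ribosomal RNA, used a strand-specific kit and deposited a table of RPKM per gene and library. The submitters' processing notes name the build mm9, TopHat2 2.0.8, SAMtools, featureCounts 1.4.5-p1 and DESeq2. The table also holds the authors' own results for 3 comparisons, deposited as log2 fold changes and adjusted p-values, and these were left unused. Gene locations came from GENCODE vM21 (GRCm38) and promoters from RefSeq (GRCm38.p6). This build differs from that of the files, and no coordinate was converted.

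The steps between RPKM values gave whole reads, lengths and totals. All 15451 genes above 0 came out as whole reads within 0.001, and 6220 genes were at 0 throughout. RPKM were scaled per library by the median ratio (factors of 0.974 to 1.026). A single limma fit of log2(RPKM + 0.1) over the 12 libraries, with a mean-variance trend, took the 9745 genes that reached 1 RPKM in 3 or more libraries. Its two-sided p-values were adjusted after Benjamini and Hochberg (Benjamini-Hochberg) for each comparison separately, with a threshold of 0.05. All adjusted p-values in the text are from it unless voom is named, and fold changes are on this scale. Each drug was compared with untreated cells, the combination with each single drug, and the response to IACS-010759 between primed and nonprimed cells (the interaction). The combination against untreated gave the joint change of some members and, with IACS against OHT, the order of levels. These comparisons share libraries. In a simulation of OHT against untreated with 9745 genes, 196 of 200 genes given a log2 change of 1 passed, and so did 16 of 9545 others. The members ranged by at most 0.62 between conditions, and changes of that size were not simulated.

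The members and gene lists were chosen with earlier results of these data known. The text names the members, the 3 smallest adjusted p-values per list in 3 comparisons, the 3 genes most like each of the 3 members of widest range, and Odc1 and Trib3. Other genes were named after their values were seen. Of 20 alternatives, 12 left out a library each, and the others were pseudocounts of 0.01 and 1, no filter, a filter at 5 RPKM, RPKM without scaling, the replicate block, the log2 library total as a covariate, and voom on the recovered reads. The software was python 3.11.15 with numpy 2.4.6, pandas 2.3.3 and matplotlib 3.10.9, and R 4.3.3 with limma 3.58.1.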

Additional observations from a re-analysis of the deposited data

How the results depend on the processing

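Over the 9 members, 5 comparisons and 20 alternatives, 865 values kept their direction and side of the threshold, 7 became significant, 16 lost significance and 7 changed sign, none of the last past the threshold. Sign changes were Cdk4 in OHT_IACS against OHT (0.003 with the library total as a covariate, and from -0.112 to 0.044 with a library left out), E2f1 in OHT against untreated (from -0.202 to 0.052) and OHT_IACS against OHT (from -0.026 to 0.071), and Ccne2 in OHT_IACS against IACS (from -0.032 to 0.105). The libraries that turned the sign were OHT replicates 1 and 3 for Cdk4, untreated replicate 3 and OHT_IACS replicate 3 for E2f1, and IACS replicate 1 and OHT_IACS replicate 3 for Ccne2. The causes were not tested. E2f1 dropped out under the filter at RPKM of 5.

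The genes called in the interaction, 14, became 7 without a filter, 5 with RPKM as deposited, 7 with the replicate block, 5 with the library total as a covariate, 36 with voom, and 3 (without OHT replicate 3 or OHT_IACS replicate 3) to 130 (without OHT replicate 2) when a library was left out. No member was among the calls under any of the 20. The genes called with OHT became 2351 with the covariate and 2650 to 4123 with a library left out. Genes called with IACS-010759 alone ranged from 951 (without untreated replicate 1; 998 without untreated replicate 2, 1026 without IACS replicate 3) to 1809, and in primed cells from 1524 (without OHT_IACS replicate 3) to 2951. The members called with OHT ranged from 3 (without OHT replicate 3) to 6 with a library left out, and were 7 with voom.

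Same-numbered libraries of different conditions deviated together little (1 of 18 pairs over 0.1, from -0.172 to 0.104). Between untreated and OHT cells the same-numbered pairs were at 0.083, 0.104 and 0.088, and all others between -0.08 and -0.009. With 3 libraries per condition this cannot decide whether the numbers pair samples. With the replicate block 3593, 1486, 2256 and 2532 genes were called in the first 4 comparisons, and of the members Cdk4 was added with OHT (log2 0.21, adjusted p = 0.0494). Depth limited Ccnd1, at 3 to 11 reads, and E2f1, at 99 to 198 reads, the most.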
